A study of Homo sapiens with 12 samples.

Results

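LNCaP cells forced to express MUC1-C were compared with LNCaP control cells across every gene counted, in 6 of the 12 RNA-Seq libraries of the study. The members are the 3 libraries labelled LNCaP and the 3 labelled LNCaP with MUC1-C OE (overexpression), and reads were counted over 25435 gene symbols. LNCaP is an established human prostate cancer line that in culture usually carries the markers of luminal prostate epithelium. The control libraries are labelled wild-type while their columns in the count table are named vector, so whether these cells carried an empty vector is not settled. The labels of the overexpressing libraries give the treatment as tetMUC1-C and put sh before MUC1-C in the title, whereas the study's methods describe MUC1-C in a pHR' CMV GFP Hygro vector, in which a CMV promoter drives the insert without an inducer. Whether the overexpressing cells were 1 clone or a pool is not given in the sources used here, and cells of both groups were grown in the same serum-containing medium. The RNA came from triplicate cultures, and the p-values below therefore measure the spread between cultures of 1 line per group. The other 6 libraries, from enzalutamide-resistant LNCaP-ER cells, were used only for the levels of marker genes in their 3 vehicle libraries.

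MUC1 encodes a heterodimeric mucin of the apical membrane of epithelia. Its MUC1-C subunit spans the membrane, and its cytoplasmic domain takes part in receptor tyrosine kinase, Wnt and inflammatory signalling and is found with transcription factors and chromatin regulators in the nucleus. In prostate cancer MUC1-C has been studied for its links to lineage plasticity, in which luminal cells lose luminal and epithelial traits and gain mesenchymal, stem-like or neuroendocrine ones, and to a shift in metabolism.

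Total counts ranged from 13806856 to 19208944 per library, with 0.05 as the threshold for an adjusted p. Counts of the replicates of a group differed beyond sampling noise in all pairs (the chi-square divided by its degrees of freedom was 2.20 to 7.25). That spread cannot by itself show that the replicates were separate cultures, since library preparation adds to it too. Levels are given as CPM, counts scaled to a common library total after TMM normalization, unless library size is named, and they are compared between libraries and not between genes, since no gene lengths were used. Changes are log2 fold changes of MUC1-C OE over LNCaP, with a standard error after ±. This error was computed back as the absolute log2 fold change divided by the square root of the quasi-likelihood F statistic. For a gene with few counts in a group, it can be smaller than counting error alone and is not a measure of precision. CPM values joined by "to" are the means of the 3 LNCaP and of the 3 MUC1-C OE libraries. A gene was called when its p, from the quasi-likelihood test of edgeR and adjusted by Benjamini-Hochberg, was under 0.05. A group with 3 counts or fewer in each library is described as at the floor, and a fold against it is given as a lower bound computed with 3 counts per library in that group.

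MUC1, the gene that was introduced, was counted 30, 25 and 31 times in LNCaP replicates 1, 2 and 3 and 9168, 9959 and 12622 times in MUC1-C OE replicates 1, 2 and 3. The groups did not overlap, and MUC1 had the largest log2 fold change of the 89 genes that were called and at least 4-fold higher, leaving out genes at the floor in LNCaP (log2 fold change 8.91, standard error 0.12, adjusted p = 2.77e-16). Counts per gene do not separate the transcript of the vector from that of the cell's own gene. Of the mucin family, 16 genes were listed and 3 passed the filter on low counts. MUC1 was the called member that rose, while MUC19 (2.04 to 0.269 CPM, log2 fold change -2.89 ± 0.35) and MUC3A (4.70 to 1.36 CPM, log2 fold change -1.77 ± 0.23) fell. The membrane mucins MUC4 and MUC16 did not pass the filter on low counts.

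The labelled cell type was checked against its markers before the groups were compared. Luminal cells of the prostate make secreted and membrane-bound proteases and antigens, such as KLK3, which encodes prostate-specific antigen. By library size alone, KLK3 stood at 24.8 CPM in LNCaP against 138 ± 12.99 CPM in the LNCaP-ER vehicle libraries (SD, n = 3). TMPRSS2, a luminal serine protease, stood at 9.52 against 546 CPM, and FOLH1, prostate-specific membrane antigen, at 8.77 against 1689 CPM. FOXA1, a pioneer factor of luminal epithelia, stood at 33.0 against 1055 CPM. Other luminal genes were closer, such as FKBP5 at 171.6 against 193.5 CPM and HOXB13 at 35.5 against 253 CPM. Over the 21 luminal genes tested with at least 10 CPM in LNCaP-ER vehicle, LNCaP held a median of 5.96% of that level. The range was 0.519% for FOLH1 to 114% for KRT8. Both groups of this experiment instead held transcripts that are not usual for prostate luminal cells. LIN28B, an oncofetal RNA-binding protein, had 169 ± 4.64 CPM in LNCaP and 221 ± 7.05 CPM in MUC1-C OE (SD, n = 3), and was at 0 CPM in LNCaP-ER. CDX2, an intestinal homeobox factor, had 26.6 ± 1.71 CPM in LNCaP and 26.6 ± 0.970 CPM in MUC1-C OE (SD, n = 3) and was likewise at 0 CPM in LNCaP-ER. Of the 14 intestinal genes listed, 10 were at the floor in all libraries of both groups. NEFL, a neurofilament chain, had 127 ± 4.39 CPM in LNCaP and 164 ± 4.12 CPM in MUC1-C OE (SD, n = 3), and VIM, the intermediate filament of mesenchymal cells, had 453 ± 23.98 CPM in LNCaP and 1277 ± 53.8 CPM in MUC1-C OE (SD, n = 3), whereas LNCaP-ER held 0.432 and 5.17 CPM by library size. A check of a single sex-linked gene did not match the labelled line in 6 of the 6 libraries and matched it in the 3 LNCaP-ER vehicle libraries. By most of these markers the libraries therefore go against their labelled line in both groups, and they are named below by their labels. The 2 experiments were counted in separate tables, so these levels were set side by side without a test.

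**Figure D1:**
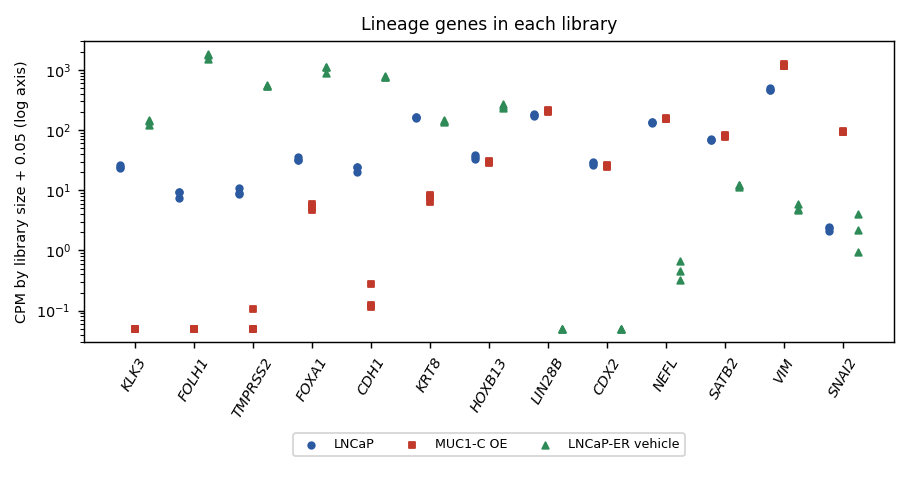
CPM by library size plus 0.05, on a log axis, of 13 lineage genes in each of the 3 LNCaP, 3 MUC1-C OE and 3 LNCaP-ER vehicle libraries, 1 point per library. KLK3, FOLH1, TMPRSS2 and CDH1 lie near 0 in MUC1-C OE, the LNCaP points lie below the LNCaP-ER points for most luminal genes, and LIN28B and CDX2 appear in both groups of this experiment and not in LNCaP-ER.

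Over all genes, 67.3% of the 13836 genes tested were called, 4600 higher (33.2%) and 4712 lower (34.1%) in MUC1-C OE, and these shares are the background for each list below. The groups did not overlap, meaning that every library of one group lay beyond every library of the other, for 70.3% of the genes tested, 34.4% with MUC1-C OE higher and 35.9% with it lower. Called genes were nearly even between the directions, and losses outnumbered rises among large changes. At 2-fold or more, 465 genes rose (3.36%) and 1452 fell (10.5%). At 4-fold or more, 89 rose and 690 fell, and at 16-fold or more 31 rose and 298 fell. The balance rested on the scaling, since TMM set the median log2 fold change at -0.009 and library size alone set it at -0.16, which moved the share of called genes that were higher from 49.4% to 32.3%.

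**Figure D2:**
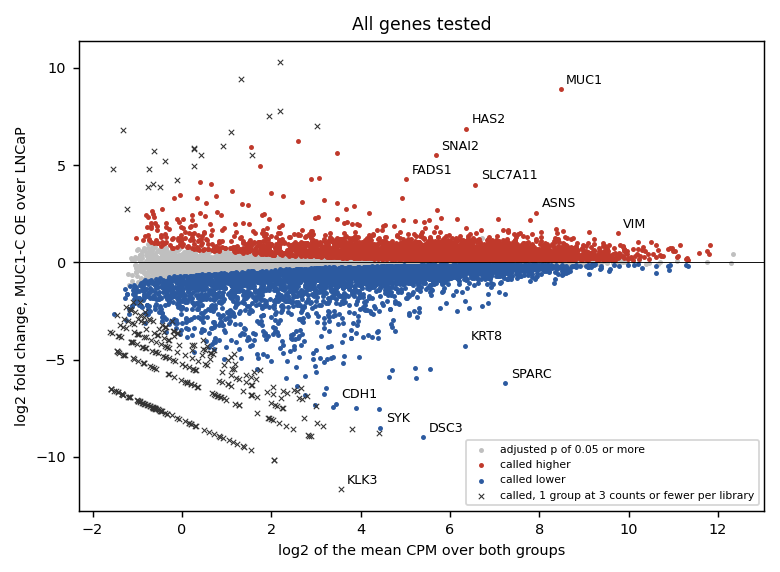
Log2 fold change of MUC1-C OE over LNCaP (y) against the log2 mean CPM over both groups (x) for the 13836 genes tested, 1 point per gene, coloured by the call, with crosses for called genes that had 3 counts or fewer in each library of 1 group. More points lie far below 0 than far above it, and the fitted values of the crosses are not bounds.

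After MUC1, the largest rise among genes above the floor was that of HAS2, which makes the matrix polysaccharide hyaluronan. Its counts were 26, 20 and 35 in LNCaP and 2166, 2342 and 2753 in MUC1-C OE (log2 fold change 6.87, standard error 0.12, adjusted p = 1.02e-15). SNAI2, the zinc finger repressor also called Slug that acts on E-cadherin, reached 99.6, 98.1 and 102.2 CPM in MUC1-C OE from 2.31, 2.22 and 1.97 CPM in LNCaP (log2 fold change 5.52, standard error 0.09, adjusted p = 1.05e-17). Neither gene overlapped between the groups, and in both the 3 libraries of a group were close together. FADS1, the delta-5 desaturase of polyunsaturated fatty acids, rose from 3.398, 3.06 and 3.01 CPM to 63.3, 63.2 and 58.3 CPM (log2 fold change 4.28, standard error 0.09, adjusted p = 2.77e-16), and EMILIN2, a glycoprotein of the extracellular matrix, from 5.46 to 55.2 CPM (log2 fold change 3.32, standard error 0.40, adjusted p = 0.0017). Solute carriers among the 15 largest rises were SLC7A11, the cystine and glutamate exchanger (11.2 to 178 CPM, log2 fold change 3.99 ± 0.65), SLC6A9, the glycine transporter GLYT1 (0.791 to 16.02 CPM, log2 fold change 4.34 ± 0.61), and SLC5A5, the sodium-iodide symporter (0.719 to 14.1 CPM, log2 fold change 4.28 ± 0.18). The solute carrier family as a whole was called higher in 71 of 226 tested (31.4%) and lower in 90 (39.8%), and at 2-fold or more 9 rose and 24 fell. ULK2, a kinase that starts autophagy (0.429 to 21.7 CPM, log2 fold change 5.64 ± 0.17) and BCL6B, a zinc finger repressor (0.153 to 11.9 CPM, log2 fold change 6.21 ± 0.36) rose with them. SYT5, a synaptotagmin of secretory vesicles (0.206 to 6.45 CPM, log2 fold change 4.93 ± 0.32), AGAP2-AS1, an antisense RNA, RGAG1, SOWAHA and FHAD1 completed the 15, with AGAP2-AS1 at 0, 4 and 1 counts in LNCaP and 98, 64 and 94 in MUC1-C OE. Whether the counting used the strand is not stated, so reads of AGAP2-AS1 cannot be told apart from those of AGAP2. Without LNCaP replicate 3, the log2 fold change was 7.16 for BCL6B. Leaving out LNCaP replicate 1 gave a log2 fold change of 3.96 for EMILIN2. The log2 fold change with MUC1-C OE replicate 1 left out was 3.30 for SLC7A11. The values without a library for BCL6B depend on the prior count of the fit and are not bounds, since the libraries left in that group held 3 counts or fewer.

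Genes switched on, with 3 counts or fewer in each LNCaP library and at least 5 CPM in each MUC1-C OE library, numbered 5. ZSCAN18, a zinc finger gene, was counted 2, 2 and 3 times in LNCaP and 249, 190 and 280 times in MUC1-C OE, at least 104-fold higher. PPP1R14A, an inhibitor of myosin phosphatase, went from 0, 0 and 0 to 146, 108 and 154 counts, at least 59.2-fold. The others were ALPL, the tissue-nonspecific alkaline phosphatase (at least 58.8-fold), MFAP2, a protein of matrix microfibrils (at least 49.8-fold), and PLIN2, which coats lipid droplets (at least 37.8-fold). In each of the 5, all MUC1-C OE libraries lay far above all LNCaP libraries.

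The largest losses above the floor began with DSC3, a cadherin of desmosomes, counted 1645, 1624 and 1644 times in LNCaP and 0, 0 and 7 times in MUC1-C OE (log2 fold change -9.0, standard error 0.22, adjusted p = 2.05e-13). SYK, a cytoplasmic tyrosine kinase, was counted 879, 782 and 871 times in LNCaP and 0, 1 and 4 times in MUC1-C OE (log2 fold change -8.50, standard error 0.21, adjusted p = 2.07e-15). SPARC, a matricellular protein, dropped from 296, 306 and 294 CPM to 4.13, 2.75 and 5.02 CPM (log2 fold change -6.20, standard error 0.10, adjusted p = 7.26e-17). DSC3 and SYK were nearly silent in MUC1-C OE, while SPARC kept 61, 36 and 84 counts there, and the groups did not overlap for the 3 genes. CDH1, which encodes E-cadherin, fell from 460, 436 and 373 counts to 1, 1 and 4 (log2 fold change -7.26, standard error 0.24, adjusted p = 5.96e-14). The standard errors of DSC3, SYK, CDH1 and other genes with few counts in MUC1-C OE understate the counting error there. Secreted and surface proteins among the others were PDGFD, a ligand of the PDGF receptors (20.8 to 0.102 CPM, log2 fold change -7.44 ± 0.25), GYPC, a membrane glycophorin (18.6 to 0.201 CPM, log2 fold change -6.47 ± 0.22) and HLA-DPA1, a chain of an MHC class II molecule (74.1 to 1.21 CPM, log2 fold change -5.93 ± 0.14). Regulators of trafficking and signalling were SNX19, a sorting nexin (29.8 to 0.153 CPM, log2 fold change -7.50 ± 0.20), VAMP8, a SNARE of late endosomes (49.0 to 0.785 CPM, log2 fold change -5.91 ± 0.15) and RASAL1, a Ras GTPase-activating protein (9.95 to 0.147 CPM, log2 fold change -5.92 ± 0.29). The set also held PLA2G16, a phospholipase (15.6 to 0.0797 CPM, log2 fold change -7.33 ± 0.31), GSPT2, a translation termination factor (13.3 to 0.0996 CPM, log2 fold change -6.80 ± 0.32), MAGEA3, a cancer-testis antigen (42.3 to 0.221 CPM, log2 fold change -7.51 ± 0.16) and MAGEL2, an imprinted gene (17.9 to 0.161 CPM, log2 fold change -6.77 ± 0.23). HAGLR, a noncoding RNA of the HOXD cluster (11.7 to 0.122 CPM, log2 fold change -6.37 ± 0.31) completed the 15, its reads not separable from overlapping transcripts without the strand, and all 15 had an adjusted p of at most 9.51e-12. Reads of MAGEA3 can be shared with near-identical MAGEA copies, which makes its value uncertain. When MUC1-C OE replicate 3 was left out, the log2 fold change was -8.09 for CDH1, -13.50 for DSC3, -10.84 for GSPT2, -8.07 for HAGLR, -8.90 for PDGFD, -11.07 for PLA2G16 and -9.96 for SYK. Without MUC1-C OE replicate 1, the log2 fold change was -7.38 for MAGEL2. The values without a library for CDH1, DSC3, GSPT2, HAGLR, MAGEL2, PDGFD, PLA2G16 and SYK depend on the prior count of the fit and are not bounds, since the libraries left in that group held 3 counts or fewer.

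The mirror class of genes switched off held 48 genes, against the 5 switched on. JAKMIP2 had the largest bound, with 864, 780 and 847 counts in LNCaP and 1, 0 and 3 in MUC1-C OE, at least 209-fold lower. KLK3 followed after ZNF257, with 514, 432 and 434 counts in LNCaP and 0, 0 and 0 in MUC1-C OE, at least 116-fold lower. The class also held metabolic and receptor genes. DECR1, a mitochondrial enzyme of unsaturated fatty acid oxidation, went from 335, 286 and 325 to 0, 1 and 1 counts, GALC, the lysosomal galactosylceramidase, from 270, 250 and 285 to 1, 1 and 3, and LPL, lipoprotein lipase, from 232, 205 and 248 to 1, 2 and 2. PGR, the progesterone receptor, went from 301, 267 and 291 to 0, 0 and 1 counts, CCKBR, the gastrin receptor, from 246, 254 and 244 to 2, 0 and 2, and NEFM, a neurofilament chain, from 303, 329 and 300 to 1, 1 and 2. All of these were off in each MUC1-C OE library, with bounds between 57.4-fold for LPL and 79.2-fold for DECR1. Among the 15 with the largest bounds were also TMEM246, GAS7, ZNF681, CHODL, HTATIP2 and SHROOM2, and the other members included FOLH1, TMPRSS2, TRPM8, EHF, PEG3 and ZNF43. Reads of ZNF257, ZNF681, ZNF43 and ZNF676 can be shared between neighbouring zinc finger genes of similar sequence.

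Genes with large changes were set beside their level in LNCaP-ER cells. Of the 687 genes called and at least 4-fold lower (sex-linked marker genes left out), 650 were listed in the table of the LNCaP-ER cells, and 178 of these (27.4%) had a mean of at least 10 CPM by library size in its vehicle libraries, while 372 (57.2%) had less than 1 CPM. Over all genes tested and listed there, these shares were 67.6% and 15.8%. Of the genes called and at least 4-fold higher, 86 were listed there, and the shares were 22.1% and 55.8%. The shares of the losses were thus not particular to them. Of the genes switched off, 14 had at least 10 CPM in LNCaP-ER, among them FOLH1, EHF, an epithelial ETS factor with 1067 CPM, and TMPRSS2, and 28 had less than 1 CPM, among them JAKMIP2, NEFM and PGR. Among genes abundant in LNCaP-ER and absent from MUC1-C OE, the LNCaP libraries mostly held a small share. For the 71 genes with at least 50 CPM in LNCaP-ER vehicle and 3 counts or fewer in each MUC1-C OE library, the LNCaP level had a median of 1.16% of the LNCaP-ER level (quartiles 0.705% and 1.74%), and 53 of them lay between 0.5% and 3%. EHF stood at 1.11%, TMPRSS2 at 1.74% and FOLH1 at 0.519% of it. KLK3 at 18.0%, SHROOM2 at 16.5%, TOX3 at 10.6% and PEG3 at 8.55% stood higher, and the lowest value was 0%. KRT8, which was not at the floor in MUC1-C OE, stood at 114%. The libraries of the 2 experiments differ in line, table and total count, and the source of these reads in the LNCaP libraries was not tested.

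Lineage genes moved mostly down. Of the 21 prostate luminal genes tested, 17 were called lower and 1 higher, with a median log2 fold change of -1.99 against -0.009 over all genes. FOXA1 fell from 29.7, 33.6 and 30.7 CPM to 6.22, 4.97 and 5.56 CPM (log2 fold change -2.48, standard error 0.10, adjusted p = 1.04e-12). KRT8 and KRT18, the paired keratins of simple epithelia, fell unequally, KRT8 (154 to 7.87 CPM, log2 fold change -4.28 ± 0.08) and KRT18 (66.0 to 30.04 CPM, log2 fold change -1.13 ± 0.06). HOXB13, a homeobox factor of the prostate, was at 33.7 ± 2.47 CPM in LNCaP and 31.4 ± 1.52 CPM in MUC1-C OE (SD, n = 3) and was not called (adjusted p = 0.248). The called rise in this list was that of NDRG1, 46.9 to 65.3 CPM. In bulk RNA, fewer cells of a type and less RNA per cell cannot be told apart, and the part that the reads shared with LNCaP-ER have in this list was not tested. With library size alone as the scaling, HOXB13 (log2 fold change -0.25) was called lower.

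The epithelial junction list fell further. 17 of its 19 tested members were called lower and 1 higher, with a median of -3.36, or -2.63 with genes at the floor set to their bound. Beside CDH1, losses included MAL2, a protein of apical transport (20.1 to 0.670 CPM, log2 fold change -4.89 ± 0.21), ERBB3 (15.6 to 4.33 CPM, log2 fold change -1.86 ± 0.12), and OCLN, occludin of tight junctions (35.0 to 24.6 CPM, log2 fold change -0.51 ± 0.07). Many members were low in LNCaP already, such as EPCAM (54, 50 and 32 counts in LNCaP, 0, 0 and 4 in MUC1-C OE), the splicing factor ESRP1 (29, 20 and 22 counts in LNCaP, 5, 2 and 3 in MUC1-C OE) and GRHL2, an epithelial transcription factor (94, 72 and 48 counts in LNCaP, 0, 2 and 1 in MUC1-C OE). DSP, desmoplakin of desmosomes, went the other way and rose from 206 to 259.9 CPM (log2 fold change 0.34, standard error 0.05, adjusted p = 6.51e-06). Of the 18 tested members with at least 10 CPM in LNCaP-ER vehicle, 13 stood in LNCaP between 0.5% and 3% of the LNCaP-ER level by library size (median 1.93%), CDH1 at 2.92%, EPCAM at 2.97% and GRHL2 at 1.88%, and the part of such reads in the fall of this list was not tested. The cadherins followed, with 10 of 13 tested members lower and 0 higher. CDH4 (11.9 to 0.397 CPM, log2 fold change -4.85 ± 0.21) and CDH2, N-cadherin (115 to 75.8 CPM, log2 fold change -0.60 ± 0.05) fell as well, and N-cadherin is often gained where E-cadherin is lost. Leaving out MUC1-C OE replicate 1 gave a log2 fold change of -5.74 for MAL2.

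Mesenchymal genes did not move as a block. Of 19 tested, 7 were called higher and 8 lower (median -0.35). VIM rose from 480.2, 435 and 445 CPM to 1339, 1251 and 1242 CPM (log2 fold change 1.49, standard error 0.05, adjusted p = 6.02e-14) and ZEB1, a repressor of epithelial genes (38.6 to 74.0 CPM, log2 fold change 0.94 ± 0.06) rose with SNAI2. The related factors SNAI1 (1.95 CPM in LNCaP and 1.37 CPM in MUC1-C OE, adjusted p = 0.24) and TWIST2 (1.69 CPM in LNCaP and 2.00 CPM in MUC1-C OE, adjusted p = 0.527) were not called. Matrix and contractile genes fell beside SPARC, among them ACTA2, smooth muscle actin (27.4 to 2.94 CPM, log2 fold change -3.21 ± 0.14), FBN1, fibrillin 1 (17.5 to 5.24 CPM, log2 fold change -1.73 ± 0.18) and LUM, lumican (8.71 to 2.61 CPM, log2 fold change -1.74 ± 0.18). Collagens were called lower in 15 of 28 and higher in 6, with COL5A2 (56.9 to 22.8 CPM, log2 fold change -1.32 ± 0.07) lower and COL13A1 (6.15 to 24.1 CPM, log2 fold change 1.97 ± 0.13) higher. Integrins and laminins were called lower in 14 of 33 and higher in 9. LAMA3 (28.1 to 5.31 CPM, log2 fold change -2.39 ± 0.11) and ITGA6 (75.9 to 37.8 CPM, log2 fold change -1.003 ± 0.06) fell, while ITGB1 (131 to 203 CPM, log2 fold change 0.64 ± 0.05) and NID2, nidogen 2 (39.5 to 82.3 CPM, log2 fold change 1.06 ± 0.07) rose. SNAI1 was called without MUC1-C OE replicate 3 (log2 fold change -1.10, adjusted p = 0.00932).

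Neuroendocrine genes moved mostly down, and neuronal genes less so (median -0.41). 7 of 10 neuroendocrine genes tested were called lower and 3 higher (median -0.92). ENO2, neuron-specific enolase (50.7 to 14.05 CPM, log2 fold change -1.86 ± 0.09) and CHGA, chromogranin A (3.67 to 2.03 CPM, log2 fold change -0.86 ± 0.27) fell. SYP, synaptophysin, rose from 17.6 to 22.6 CPM and NCAM1 from 70.3 to 82.3 CPM. ONECUT2, a factor of neuroendocrine prostate cancer, was at 66.5 CPM in LNCaP and 73.8 CPM in MUC1-C OE (log2 fold change 0.15, standard error 0.06, adjusted p = 0.0382), a value that fell just below 0 under library size alone. Its call was also lost with DESeq2 (adjusted p = 0.0688) and with at least 10 counts in every library (adjusted p = 0.0964). NEUROD1, a factor of neuroendocrine fate, did not pass the filter on low counts. Of the neuronal list, 6 of 11 were lower and 3 higher, with SNAP25 (6.75 to 0.243 CPM, log2 fold change -4.73 ± 0.26) and MAP2 (7.73 to 0.723 CPM, log2 fold change -3.37 ± 0.22) lower and DCX, doublecortin, up from 0, 0 and 2 to 41, 35 and 28 counts. HOX genes, which mark position along the body axis, were called higher in 11 of 35 and lower in 12 (median -0.03, or 0.10 relative to genes within the same 10 Mb). NCAM1 (log2 fold change 0.07) and SYP (log2 fold change 0.20) were not called when library size alone set the scale. CHGA was no longer called without MUC1-C OE replicate 3 (log2 fold change -0.59, adjusted p = 0.0704). ONECUT2 was no longer called without LNCaP replicate 2, without LNCaP replicate 3, without MUC1-C OE replicate 1 or without MUC1-C OE replicate 3, each left out in turn, with log2 fold changes of 0.11 to 0.17 and adjusted p of 0.0544 to 0.18.

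**Figure D3:**
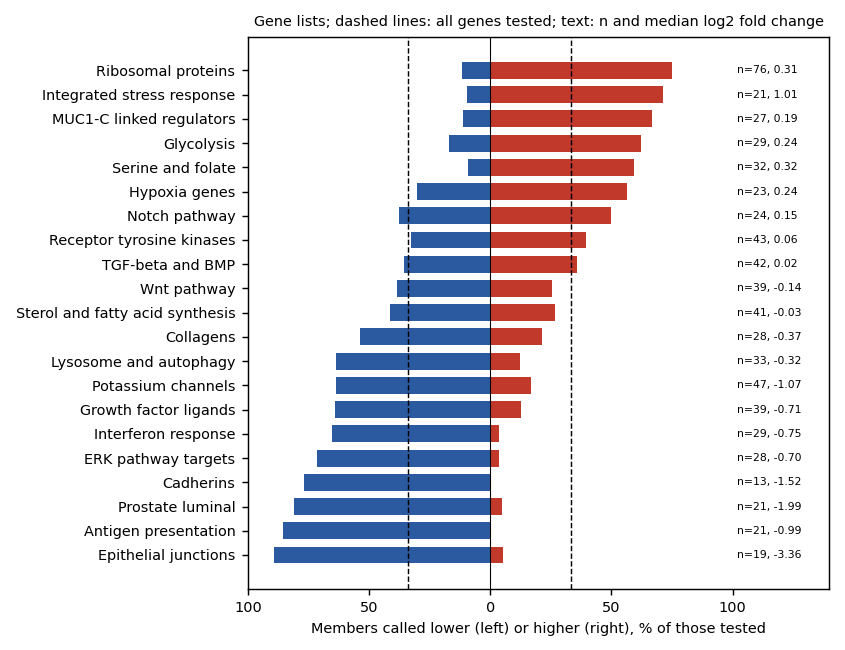
Share of the tested members of 21 gene lists that were called lower (blue, left) or higher (red, right) in MUC1-C OE, in percent, with the number tested and the median log2 fold change beside each bar and dashed lines at the shares over all genes tested (34.1% lower, 33.2% higher). Epithelial junctions, antigen presentation and prostate luminal genes have the largest lower shares, and ribosomal proteins and the integrated stress response the largest higher ones.

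Of the signalling lists, the immediate targets of the ERK pathway are given first. Receptor tyrosine kinases can raise these transcripts, and many of their products dampen the pathway. Pathway activity was not measured in these libraries, and the study reported higher phosphorylated AKT and ERK by immunoblot in LNCaP cells overexpressing MUC1-C. Of the ERK target transcripts, 20 of 28 tested were called lower and 1, MYC, higher (median -0.70). EGR1, an early growth response factor, fell from 60.1, 44.7 and 34.6 CPM to 9.74, 13.1 and 9.80 CPM (log2 fold change -2.11, standard error 0.27, adjusted p = 0.00114). FOS (10.9 to 1.48 CPM, log2 fold change -2.89 ± 0.23), ETV4, a PEA3 family factor (6.13 to 0.238 CPM, log2 fold change -4.73 ± 0.31), ETV5 (4.96 to 0.882 CPM, log2 fold change -2.46 ± 0.23) and DUSP4, a phosphatase of ERK (12.7 to 4.78 CPM, log2 fold change -1.41 ± 0.13) fell with it, and so did CCND1, cyclin D1 (147 to 85.5 CPM, log2 fold change -0.78 ± 0.06). The groups of EGR1, FOS, ETV4, ETV5, DUSP4 and CCND1 did not overlap. JUNB (8.31 CPM in LNCaP and 9.10 CPM in MUC1-C OE) and SPRY1 (17.2 CPM in LNCaP and 15.2 CPM in MUC1-C OE) were not called. MYC was 112 CPM in LNCaP and 125 CPM in MUC1-C OE (log2 fold change 0.16, standard error 0.05, adjusted p = 0.0117). With library size alone as the scaling, SPRY1 (log2 fold change -0.33) was called lower. By library size alone, MYC (log2 fold change 0.01) was not called. MYC was no longer called without LNCaP replicate 1 (log2 fold change 0.12, adjusted p = 0.09).

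The ligands of growth factor receptors were called lower in 25 of 39 and higher in 5 (median -0.71). Beside PDGFD, LIF (5.77 to 0.335 CPM, log2 fold change -3.98 ± 0.31) of the cytokine ligands, EFNB1, an ephrin (73.1 to 22.5 CPM, log2 fold change -1.70 ± 0.07), TGFA, a ligand of EGFR (8.41 to 3.27 CPM, log2 fold change -1.34 ± 0.16) and PDGFA (15.8 to 7.18 CPM, log2 fold change -1.13 ± 0.10) fell. NRG3, a neuregulin that binds ERBB4, went from 81, 113 and 104 counts to 0, 0 and 0, at least 25.1-fold lower. Among the 5 that rose were ANGPT1, angiopoietin 1 (2.38 to 19.6 CPM, log2 fold change 3.04 ± 0.13) and VEGFA (27.7 to 51.2 CPM, log2 fold change 0.89 ± 0.07). Receptor tyrosine kinases moved both ways, 17 of 43 higher and 14 lower, with a median of 0.06 that changed sign under library size alone. IGF1R (108 to 164 CPM, log2 fold change 0.60 ± 0.05), ERBB2 (43.1 to 69.9 CPM, log2 fold change 0.70 ± 0.06), FGFR4 (7.63 to 16.6 CPM, log2 fold change 1.12 ± 0.10) and FLT1 (17.0 to 31.8 CPM, log2 fold change 0.90 ± 0.08) rose, while ERBB3 (15.6 to 4.33 CPM, log2 fold change -1.86 ± 0.12), DDR1 (49.9 to 22.5 CPM, log2 fold change -1.14 ± 0.08), EPHB6 (11.4 to 0.758 CPM, log2 fold change -3.89 ± 0.19) and AXL (2.27 to 0.479 CPM, log2 fold change -2.19 ± 0.30) fell. EGFR itself rose from 18.4 to 23.99 CPM (log2 fold change 0.39, standard error 0.09, adjusted p = 0.00105). The log2 fold change with MUC1-C OE replicate 3 left out was -4.94 for LIF.

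In the PI3K and FOXO list, 11 of 34 were called higher and 10 lower. TXNIP, an inhibitor of thioredoxin and of glucose uptake (18.0 to 49.2 CPM, log2 fold change 1.45 ± 0.09) rose and INPP5D, the lipid phosphatase SHIP1 (14.7 to 0.562 CPM, log2 fold change -4.64 ± 0.22) fell. AKT1 (172 CPM in LNCaP and 169.7 CPM in MUC1-C OE) was not called. The Wnt list had 15 of 39 lower and 10 higher. SFRP1, a secreted Wnt antagonist (27.7 to 2.16 CPM, log2 fold change -3.66 ± 0.13) and FZD6, a receptor (52.6 to 28.1 CPM, log2 fold change -0.91 ± 0.07) fell, FZD8 (7.61 to 14.6 CPM, log2 fold change 0.94 ± 0.11) and RNF43, a ligase that removes Wnt receptors (14.3 to 22.8 CPM, log2 fold change 0.68 ± 0.09) rose, and CTNNB1, beta-catenin, was 738 CPM in LNCaP and 721 CPM in MUC1-C OE (adjusted p = 0.532). Notch genes were higher in 12 of 24 and lower in 9. NOTCH2 (245 to 335 CPM, log2 fold change 0.45 ± 0.05) rose and JAG1, a ligand (9.96 to 4.35 CPM, log2 fold change -1.19 ± 0.12) fell, and HES1, a main target, fell from 39.6 to 31.5 CPM. TGF-beta and BMP genes split evenly, 15 higher and 15 lower of 42, with TGFBR3 (39.5 to 78.1 CPM, log2 fold change 0.98 ± 0.06) and BMP2 (3.799 to 10.5 CPM, log2 fold change 1.46 ± 0.14) higher and TGFBR2 (28.3 to 16.2 CPM, log2 fold change -0.80 ± 0.09) and LTBP3 (47.2 to 23.3 CPM, log2 fold change -1.01 ± 0.07) lower. Hippo genes were higher in 11 and lower in 14 of 29, with WWTR1, the YAP relative TAZ (22.6 to 57.3 CPM, log2 fold change 1.34 ± 0.08) and TEAD2, its DNA-binding partner (12.6 to 29.0 CPM, log2 fold change 1.21 ± 0.09) higher, while CYR61, a target of YAP and TAZ, was 16.8 CPM in LNCaP and 15.4 CPM in MUC1-C OE and not called. With library size alone as the scaling, AKT1 (log2 fold change -0.17), CTNNB1 (log2 fold change -0.19) and CYR61 (log2 fold change -0.28) were called lower.

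Immune recognition genes fell. Of the antigen presentation list, 18 of 21 tested were called lower and 0 higher (median -0.99). The MHC class II gene HLA-DPA1 fell from 69.0, 81.2 and 72.2 CPM to 1.76, 0.841 and 1.02 CPM (log2 fold change -5.93, standard error 0.14, adjusted p = 1.68e-15), and HLA-DPB1 (14.9 to 0.468 CPM, log2 fold change -4.96 ± 0.19) fell with it. Of the class I pathway, ERAP2, a peptidase that trims antigenic peptides (26.0 to 1.72 CPM, log2 fold change -3.90 ± 0.15), TAPBP, tapasin (69.5 to 33.1 CPM, log2 fold change -1.06 ± 0.08), TAP1, a peptide transporter (29.0 to 14.7 CPM, log2 fold change -0.99 ± 0.08) and HLA-B (195 to 134 CPM, log2 fold change -0.55 ± 0.05) fell, and B2M was 218 and 188 CPM (log2 fold change -0.21, standard error 0.05, adjusted p = 0.0014). HLA genes are polymorphic and share reads, so their single values are uncertain. Interferon response genes were lower in 19 of 29 and higher in 1 (median -0.75). BST2, tetherin (39.3 to 2.66 CPM, log2 fold change -3.89 ± 0.12), SAMD9 (26.7 to 4.996 CPM, log2 fold change -2.42 ± 0.10), IFITM1 (13.04 to 2.74 CPM, log2 fold change -2.24 ± 0.15) and IFITM2 (19.7 to 4.67 CPM, log2 fold change -2.08 ± 0.12) fell, whereas IFI44L (1.66 to 5.77 CPM, log2 fold change 1.79 ± 0.19) rose. The signal transducer STAT2 (38.0 CPM in LNCaP and 39.5 CPM in MUC1-C OE) was not called. Lymphoid and myeloid genes were mostly silent, as 13 of 19 lymphoid and 9 of 16 myeloid genes were at the floor in all libraries, with MS4A1 and CD3D at 0 counts in all 6. The summed lymphoid list ran from 34.3 to 41.1 CPM in LNCaP and from 12.2 to 15.3 CPM in MUC1-C OE, and its part in the result was not tested. NF-kB genes were split, 7 higher and 7 lower of 18, with BIRC3 (1.86 to 0.255 CPM, log2 fold change -2.88 ± 0.37) lower and TNFAIP3, the feedback inhibitor A20 (5.65 to 9.56 CPM, log2 fold change 0.76 ± 0.12) higher.

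The integrated stress response slows translation when a kinase phosphorylates eIF2 alpha, and at the same time raises the factor ATF4, which turns on amino acid synthesis and transport. 15 of the 21 genes tested on this list were called higher and 2 lower, with a median of 1.01, the highest of the lists described here. Many targets of ATF4 carry a composite element, searched here as TGATGNAA on either strand with matches counted once per promoter. Of 27305 promoter windows from 250 bases before to 50 after a RefSeq start (GRCh38.p14), 3.67% held it, against 1.5% of those of genes tested, and of the 14 genes of this list that rose and have a window, 5 did. Of all 20 genes of the list with a window, 6 did (30%). The list was chosen for this response, so its share is no test against all genes. The 5 windows of the genes that rose are shown because these genes rose together, with the element in capitals. A match is only a run of letters, and no binding was measured. The windows lie at ASNS (chr7:97872359-97872658, minus strand), CHAC1 (chr15:40953221-40953520, plus strand), PPP1R15B (chr1:204411768-204412067, minus strand), ATF3 (chr1:212565157-212565456, plus strand) and SLC3A2 (chr11:62881449-62881748, plus strand). In SLC3A2 the element lies after the start, and in the other 4 before it.
ASNS: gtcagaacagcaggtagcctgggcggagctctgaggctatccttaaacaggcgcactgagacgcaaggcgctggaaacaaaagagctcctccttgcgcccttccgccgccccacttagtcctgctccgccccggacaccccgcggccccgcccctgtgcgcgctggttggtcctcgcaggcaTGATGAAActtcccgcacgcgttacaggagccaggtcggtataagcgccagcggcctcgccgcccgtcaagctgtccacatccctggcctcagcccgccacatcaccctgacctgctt
CHAC1: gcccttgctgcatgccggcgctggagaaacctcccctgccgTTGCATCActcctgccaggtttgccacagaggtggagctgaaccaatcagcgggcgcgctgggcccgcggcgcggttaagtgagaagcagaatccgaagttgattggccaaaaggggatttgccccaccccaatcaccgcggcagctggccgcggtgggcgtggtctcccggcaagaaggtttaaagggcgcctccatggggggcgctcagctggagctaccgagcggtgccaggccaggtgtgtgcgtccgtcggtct
PPP1R15B: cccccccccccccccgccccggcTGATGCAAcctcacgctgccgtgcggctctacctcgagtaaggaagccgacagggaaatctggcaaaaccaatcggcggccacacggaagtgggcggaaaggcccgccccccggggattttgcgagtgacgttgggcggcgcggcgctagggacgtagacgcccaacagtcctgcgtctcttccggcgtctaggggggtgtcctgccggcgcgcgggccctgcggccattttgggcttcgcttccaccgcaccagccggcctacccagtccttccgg
ATF3: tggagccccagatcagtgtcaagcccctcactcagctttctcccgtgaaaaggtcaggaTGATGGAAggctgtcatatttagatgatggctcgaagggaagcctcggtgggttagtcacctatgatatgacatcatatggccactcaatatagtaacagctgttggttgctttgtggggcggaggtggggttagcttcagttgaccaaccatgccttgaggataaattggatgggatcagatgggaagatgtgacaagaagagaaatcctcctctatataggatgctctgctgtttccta
SLC3A2: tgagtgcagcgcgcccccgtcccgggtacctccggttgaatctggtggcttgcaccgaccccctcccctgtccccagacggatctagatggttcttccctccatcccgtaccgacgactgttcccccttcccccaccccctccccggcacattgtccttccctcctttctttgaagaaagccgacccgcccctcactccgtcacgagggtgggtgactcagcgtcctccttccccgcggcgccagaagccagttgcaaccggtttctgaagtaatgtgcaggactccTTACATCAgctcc

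ATF4 itself was at 449, 471 and 435 CPM in LNCaP and 926, 893 and 915 CPM in MUC1-C OE (log2 fold change 1.01, standard error 0.04, adjusted p = 2.19e-12). ASNS, asparagine synthetase, went from 76.1, 68.5 and 68.9 CPM to 727, 286 and 237 CPM (log2 fold change 2.55, standard error 0.55, adjusted p = 0.0144), and SLC7A11 from 11.97, 11.1 and 10.5 CPM to 312, 119 and 103 CPM (log2 fold change 3.99, standard error 0.65, adjusted p = 0.00551). No library of the groups overlapped in these 3 genes, but MUC1-C OE replicate 1 stood above the other 2 for ASNS and SLC7A11 and not for ATF4. CTH, cystathionine gamma-lyase, showed the same spread, with 144, 68.3 and 58.5 CPM in MUC1-C OE against 15.1, 13.99 and 13.3 CPM in LNCaP. CHAC1, which degrades glutathione, had the opposite one, with 8.05, 14.4 and 12.1 CPM against 1.08, 1.32 and 1.66 CPM, and so did DDIT4, an inhibitor of mTORC1, with 84.8, 145 and 123 CPM against 23.7, 27.0 and 24.4 CPM. SESN2 (49.3 to 159 CPM, log2 fold change 1.68 ± 0.05), PPP1R15B, which recruits the phosphatase of eIF2 alpha (90.4 to 201 CPM, log2 fold change 1.15 ± 0.05), ATF3 (24.03 to 59.1 CPM, log2 fold change 1.30 ± 0.13) and SLC7A5, a carrier of large neutral amino acids (119.8 to 333 CPM, log2 fold change 1.48 ± 0.19) rose as well. DDIT3, which encodes the pro-apoptotic factor CHOP, was at 6.22 CPM in LNCaP and 7.08 CPM in MUC1-C OE and TRIB3 at 20.3 CPM in LNCaP and 19.6 CPM in MUC1-C OE, and neither was called. GDF15, a secreted stress factor, fell from 98, 111 and 104 counts to 5, 4 and 6 (log2 fold change -3.96, standard error 0.26, adjusted p = 3.94e-10). By library size, GDF15 in LNCaP stood at 1.29% of its LNCaP-ER vehicle level, and the part of such reads in its fall was not tested. When MUC1-C OE replicate 1 was left out, the log2 fold change was 1.87 for ASNS and 3.30 for SLC7A11. ASNS was no longer called without LNCaP replicate 1, without LNCaP replicate 2 or without LNCaP replicate 3, each left out in turn, with log2 fold changes of 2.52 to 2.60 and adjusted p of 0.0541 to 0.0583. DDIT3 was called without MUC1-C OE replicate 1 (log2 fold change 0.38, adjusted p = 0.0389). TRIB3 was called without MUC1-C OE replicate 1 (log2 fold change -0.22, adjusted p = 0.0319).

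**Figure D4:**
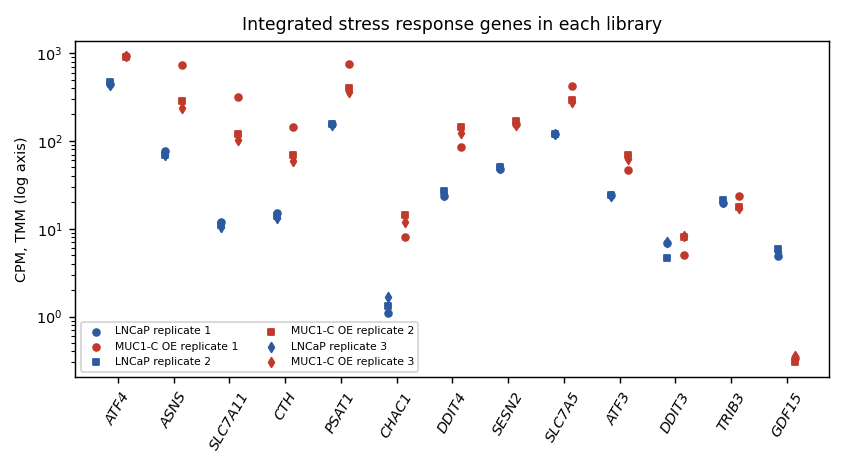
TMM CPM, on a log axis, of 13 genes of the integrated stress response in each of the 3 LNCaP (blue) and 3 MUC1-C OE (red) libraries, with the replicate given by the marker shape. MUC1-C OE replicate 1 lies above replicates 2 and 3 for ASNS, SLC7A11 and CTH and below them for CHAC1 and DDIT4.

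Enzymes of serine, glycine, asparagine and folate metabolism, several of which are ATF4 targets, were called higher in 19 of 32 and lower in 3 (median 0.32). In the serine pathway PHGDH, the first enzyme (202 to 440.4 CPM, log2 fold change 1.12 ± 0.18), PSAT1 (154 to 504 CPM, log2 fold change 1.71 ± 0.36) and PSPH (33.9 to 62.5 CPM, log2 fold change 0.88 ± 0.18) were called higher. In the mitochondrial folate branch, SHMT2 (110.4 to 227 CPM, log2 fold change 1.04 ± 0.16), MTHFD2 (194 to 458 CPM, log2 fold change 1.24 ± 0.24) and MTHFD1L (70.2 to 156 CPM, log2 fold change 1.15 ± 0.13) rose, and in the cytosol MTHFD1 (496 to 886 CPM, log2 fold change 0.84 ± 0.04) rose. CBS (134 to 393 CPM, log2 fold change 1.55 ± 0.10) of the transsulfuration pathway rose beside CTH, while GLDC, the glycine decarboxylase (62.4 to 42.5 CPM, log2 fold change -0.55 ± 0.06) and GOT2 (378 to 272 CPM, log2 fold change -0.47 ± 0.04) fell. The groups did not overlap for PHGDH, PSAT1, SHMT2, MTHFD2 or CBS. MUC1-C OE replicate 1 stood above the other 2 here too, with PHGDH at 561, 394 and 366 CPM and PSAT1 at 761, 395 and 356 CPM in MUC1-C OE replicates 1, 2 and 3. The summed list ran from 6149 to 7945 CPM in MUC1-C OE and from 4348 to 4423 CPM in LNCaP. Without MUC1-C OE replicate 1, the log2 fold change was 0.91 for PHGDH, 1.29 for PSAT1, 0.85 for SHMT2, 0.96 for MTHFD2 and 1.42 for CBS. PSAT1 was no longer called without LNCaP replicate 1, without LNCaP replicate 2 or without LNCaP replicate 3, each left out in turn, with log2 fold changes of 1.70 to 1.72 and adjusted p of 0.0508 to 0.0528.

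Glycolysis genes were higher in 18 of 29 and lower in 5, but the changes were small (median 0.24). PFKP, the platelet phosphofructokinase (87.7 to 162 CPM, log2 fold change 0.89 ± 0.05), ENO1 (1462 to 2320.5 CPM, log2 fold change 0.67 ± 0.04), SLC2A1, the glucose transporter GLUT1 (20.7 to 34.3 CPM, log2 fold change 0.73 ± 0.07), HK2 (68.8 to 101.7 CPM, log2 fold change 0.56 ± 0.06) and LDHA (1181 to 1428 CPM, log2 fold change 0.27 ± 0.06) rose, ENO2 (50.7 to 14.05 CPM, log2 fold change -1.86 ± 0.09) and SLC16A7, a monocarboxylate carrier (26.0 to 12.6 CPM, log2 fold change -1.04 ± 0.09) fell, and TPI1 (673 CPM in LNCaP and 676 CPM in MUC1-C OE) and LDHB (1414 CPM in LNCaP and 1396 CPM in MUC1-C OE) were not called. Hypoxia genes followed a like split, 13 of 23 higher and 7 lower, with CA12 (10.7 to 24.5 CPM, log2 fold change 1.20 ± 0.09) and EGLN1, the oxygen sensor PHD2 (81.3 to 156 CPM, log2 fold change 0.94 ± 0.05) higher and BNIP3L (149.7 to 90.7 CPM, log2 fold change -0.72 ± 0.05) lower. The subunits of the respiratory chain were near the background, 23 higher and 16 lower of 60, with a median of 0.02 that changed sign under library size alone. Cytosolic ribosomal proteins were higher in 57 of 76 and lower in 9, median 0.31, and share reads with many pseudogenes. Scaled by library size alone, LDHB (log2 fold change -0.17) was called lower. LDHA (log2 fold change 0.12) was not called when library size alone set the scale.

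Lipid genes did not move together. In sterol and fatty acid synthesis, 17 of 41 were lower and 11 higher. The sterol enzymes DHCR7 (104 to 57.5 CPM, log2 fold change -0.85 ± 0.06) and HMGCS1 (227 to 145 CPM, log2 fold change -0.65 ± 0.12) fell, while CYP51A1 (149 to 237 CPM, log2 fold change 0.66 ± 0.06) rose. FASN (351 CPM in LNCaP and 381 CPM in MUC1-C OE) and SCD (859.7 CPM in LNCaP and 876 CPM in MUC1-C OE) were not called. In lipid uptake and oxidation, 12 of 29 were lower and 6 higher. CD36, a fatty acid transporter (3.08 to 0.181 CPM, log2 fold change -4.05 ± 0.34), ABCA1, a cholesterol exporter (6.69 to 1.73 CPM, log2 fold change -1.93 ± 0.18) and PPARGC1A, the coactivator PGC-1 alpha (11.99 to 3.83 CPM, log2 fold change -1.64 ± 0.13) fell with LPL, and CPT1A (96.1 to 119.7 CPM, log2 fold change 0.32 ± 0.07) and FABP5 (5.31 to 10.4 CPM, log2 fold change 0.96 ± 0.12) rose with PLIN2. NRF2 and pentose phosphate genes were higher in 13 and lower in 9 of 27, with a median of 0.11 that changed sign under library size alone. PGD (169 to 266 CPM, log2 fold change 0.65 ± 0.05) and FTL (192 to 349 CPM, log2 fold change 0.86 ± 0.07) rose, while NQO1 (21.5 to 9.46 CPM, log2 fold change -1.19 ± 0.10) and HMOX1 (22.0 to 13.2 CPM, log2 fold change -0.73 ± 0.11) fell and AKR1C2, an aldo-keto reductase whose reads can be shared with AKR1C1 and AKR1C3, was switched off. FASN was called without MUC1-C OE replicate 1 (log2 fold change 0.23, adjusted p = 6.53e-05).

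Lysosome and autophagy genes were lower in 21 of 33 and higher in 4 (median -0.32), with SQSTM1, the autophagy receptor p62 (199 to 109 CPM, log2 fold change -0.87 ± 0.05), WIPI1 (15.7 to 4.66 CPM, log2 fold change -1.75 ± 0.11) and CTSL (114 to 73.7 CPM, log2 fold change -0.63 ± 0.05) lower.

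Regulators that have been linked to MUC1-C, chiefly DNA methyltransferases, Polycomb and SWI/SNF subunits, were called higher in 18 of 27 and lower in 3 (median 0.19). JUN (85.8 to 180.2 CPM, log2 fold change 1.07 ± 0.06), DNMT1, the maintenance methyltransferase (243 to 438 CPM, log2 fold change 0.85 ± 0.04), SMARCA4, the ATPase BRG1 (205 to 362 CPM, log2 fold change 0.82 ± 0.04), KDM1A, the demethylase LSD1 (207 to 366 CPM, log2 fold change 0.82 ± 0.04) and EZH2 (122 to 163 CPM, log2 fold change 0.42 ± 0.05) rose, whereas STAT3 (163 to 100.3 CPM, log2 fold change -0.70 ± 0.05) fell. Relative to genes within the same 10 Mb, the median of this list was 0.28. Part of the single rises was shared with neighbours. The window median was 0.39 at DNMT1 and SMARCA4 on chromosome 19, and 0.41 at KDM1A and 0.24 at JUN on chromosome 1. At EZH2 on chromosome 7 it was -0.10. Glycosyltransferases that act on mucins were lower in 12 of 30 and higher in 8, with GALNT3 (6.29 to 0.209 CPM, log2 fold change -4.91 ± 0.28) lower and GALNT2 (103 to 201 CPM, log2 fold change 0.96 ± 0.05) higher. Nuclear receptors were near the background (15 higher and 12 lower of 37), with NR2F2, COUP-TFII (107 to 241 CPM, log2 fold change 1.17 ± 0.05) and VDR (11.1 to 25.4 CPM, log2 fold change 1.20 ± 0.09) higher and THRB (33.6 to 16.3 CPM, log2 fold change -1.04 ± 0.09) lower beside the loss of PGR.

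Changes also followed position in the genome. Positions from RefSeq (GRCh38.p14) were found for 13592 of the 13836 genes tested. On chromosome 1 the median log2 fold change was 0.37 and 63.4% of 1351 genes were called higher. On chromosome 8 the median was -0.46 and 75.1% of 470 genes were called lower. Chromosomes 19 (0.34), 14 (0.23) and 10 (0.15) were next above 0, and 33.2% higher and 34.1% lower are the shares over all genes. The medians of the 3 MUC1-C OE libraries, each against the LNCaP mean on the scale of log2(CPM + 0.5), were 0.349, 0.355 and 0.361 on chromosome 1 and -0.460, -0.439 and -0.467 on chromosome 8, while those of the LNCaP libraries lay between -0.00742 and 0.00873 on both. Each MUC1-C OE library thus showed the same shift. Stretches of 1 chromosome differed. On chromosome 10 the median was 0.54 over 270 genes in the first 80 Mb and -0.07 over 269 genes beyond. On chromosome 1 it was 0.77 from 190 to 240 Mb and 0.03 over the 37 genes beyond. On chromosome 8 it was -0.72 in the first 30 Mb, where 103 of 113 genes were called lower, and -0.40 beyond. On chromosome 5 it was -0.34 beyond 130 Mb and 0.04 before it. These limits were chosen after the values were seen. DNA was not measured, and the cause of the pattern was not tested.

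**Figure D5:**
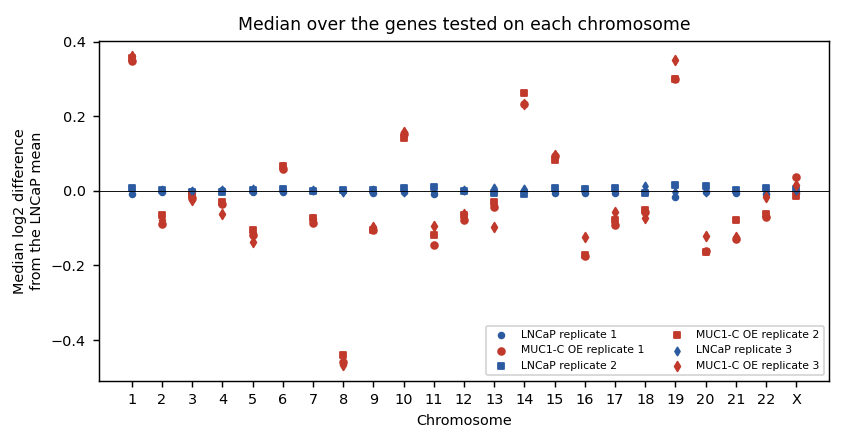
Median over the genes tested on each chromosome (x) of the difference of log2(CPM + 0.5) from the mean of the LNCaP libraries (y), 1 point for each of the 3 LNCaP (blue) and 3 MUC1-C OE (red) libraries. The 3 MUC1-C OE points lie together on each chromosome, highest on chromosome 1 (0.349 to 0.361) and lowest on chromosome 8 (-0.467 to -0.439), while the LNCaP points stay near 0.

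Several named genes lie in these stretches, and each was set against the median of the other genes tested in its 10 Mb window, an alternative added after the values were seen. PPP1R15B, on chromosome 1, had a log2 fold change of 1.15 where its neighbours had a median of 0.73, which left 0.42. ATF3, also on chromosome 1, went from 1.30 to 0.51. Among the metabolic genes that rose, window medians on chromosome 1 were 0.54 at EGLN1, 0.43 at SLC2A1, 0.31 at PGD and 0.27 at ENO1. At PFKP on chromosome 10 the window median was 0.27. At HK2 on chromosome 2 and LDHA on chromosome 11 it was -0.22 and -0.06. On chromosome 8, FDFT1, an enzyme of sterol synthesis, went from -0.67 to 0.33. The direction of FDFT1 thus turned against its neighbours. DSP, on chromosome 6, rose by 0.34 in the first 10 Mb, where the median over 35 genes was 0.39, so its rise was no larger than that median. The changes given next kept their direction relative to their neighbours. SNAI2 and HAS2 rose on chromosome 8, where neighbours were lower, and stood at 5.87 and 7.19 relative to them, and SFRP1, which fell, at -3.31. Away from these stretches, ASNS stood at 2.56. For the lists, the median relative to neighbours was 0.96 for the integrated stress response, 0.33 for serine and folate genes, 0.19 for glycolysis, -0.74 for ERK targets and -0.84 for antigen presentation.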

How the data were processed

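RNA from triplicate cultures of LNCaP cells and LNCaP cells with MUC1-C OE was made into TruSeq Stranded mRNA libraries. Per the labels and the submitters' processing notes, the authors used STAR, DESeq2 and GRCh38 (hg38). The counting tool, its strand setting, the annotation and the versions are not given in the sources used here. The deposited values are raw counts per gene symbol; 12 other per-sample columns of that table and the LNCaP-ER values in TPM were not used, and the LNCaP-ER counts deposited by the authors served only for marker levels. Genes were filtered with edgeR's filterByExpr, normalized by TMM and tested with edgeR 4.0.16 (limma 3.58.1, R 4.3.3) by its quasi-likelihood test on the 6 libraries, with Benjamini-Hochberg adjustment, after a test on simulated data. DESeq2 1.42.0, other size factors, other filters, a replicate block and leaving out each library were the alternatives. Total counts were 13806856 to 19208944, and bounds at the floor of 3 counts cover counting error only. Named genes were MUC1, the 15 largest changes each way among genes with at least 5 CPM in the higher group, the 15 largest bounds of genes switched on or off, the called list members with the smallest p, and other list members. Members and lists were chosen with earlier results of these data known. Y-linked genes, XIST and clone-numbered symbols were counted and not named. Some items are not reported here. Gene positions and promoters came from RefSeq GRCh38.p14.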

Additional observations from a re-analysis of the deposited data

How the results depend on the processing

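The number of genes called was 9312 with TMM, 9304 with median-of-ratios size factors, 9438 with library size only, 10035 without a filter on low counts and 8605 with DESeq2. Library size only changed the number higher to 3050. A minimum of 2-fold left 1917 genes, 465 higher and 1452 lower. Leaving out each library in turn gave 8486 to 9512 genes called, 4148 to 4675 higher and 4338 to 4837 lower, and 5 to 6 genes switched on and 48 to 62 switched off. Replicate numbers did not pair the samples (correlations of the deviations of same-numbered samples between -0.208 and -0.0207), and with the replicate number as a block 8965 genes were called. Genes switched on numbered 8 with up to 10 counts allowed in the off group, 1 with 0 counts, 18 with at least 1 CPM in the on group and 1 with at least 10 CPM. Genes switched off numbered 86, 4, 186 and 17 under these settings. Median log2 fold changes that changed sign under library size only were those of receptor tyrosine kinases (-0.0989), Notch (-0.000806), TGF-beta and BMP (-0.134), NRF2 and pentose phosphate (-0.0481) and respiratory chain genes (-0.13), and the fold changes of MAGEB2 (-0.13), ONECUT2 (-0.0029), SCD (-0.13) and TPI1 (-0.15) did so too. Without a filter the receptor tyrosine kinase median was -0.0513. With at least 10 counts in every library, the median was 0.167 for NF-kB genes and 3.54 for the mucins, of which 2 remained in the test. The NF-kB median was 0.154 without LNCaP replicate 1 and 0.0289 without MUC1-C OE replicate 3, and ranged from -0.218 to 0.154 over the libraries left out. Relative to its 10 Mb window, an alternative chosen after seeing the data, the median was 0.0666 for nuclear receptors and 0.103 for HOX genes. The causes were not tested. Of 229 genes named and tested, 207 kept their direction and their side of the threshold under the other scalings and filters of low counts, DESeq2, the replicate block and each library left out, and 22 did not. FDFT1 kept its side under these and turned from -0.67 to 0.33 relative to its window, and the 2-fold minimum was not part of this count. At these depths, genes with few reads in 1 group have a lower bound in place of a fold, and counting noise limits what a count of 0 to 3 can show.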

Other observations

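Potassium channels formed a further group. Their genes were called lower in 30 of 47 tested and higher in 8, with a median log2 fold change of -1.07, where 34.1% of all genes tested were lower and 33.2% higher. KCNH2, which encodes the hERG channel, fell from 20.2, 17.7 and 20.2 CPM to 0.879, 0.841 and 1.14 CPM (log2 fold change -4.32, standard error 0.16, adjusted p = 2.16e-13). KCNK2, a background channel of the TREK type, was switched off (124, 109 and 112 counts in LNCaP and 0, 0 and 3 in MUC1-C OE). KCNS3 (10.0 to 0.742 CPM, log2 fold change -3.75 ± 0.18) and KCNJ12 (17.5 to 7.02 CPM, log2 fold change -1.31 ± 0.11) fell. Every MUC1-C OE library lay below every LNCaP library for KCNH2, KCNS3 and KCNJ12.

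Insulin-like growth factor binding proteins were lower in 5 of 6 and higher in 1, with IGFBP4 (8.05 to 0.649 CPM, log2 fold change -3.57 ± 0.22) and IGFBP2 (75.3 to 48.8 CPM, log2 fold change -0.62 ± 0.06) lower and IGFBP5 (98.9 to 121 CPM, log2 fold change 0.29 ± 0.10) higher, while IGF1R, the receptor of the factors they bind, rose from 108 to 164 CPM. Cancer-testis genes of the MAGE family were lower in 6 of 7 and higher in 0, but MAGEB2, expressed at 142 CPM in LNCaP and 144 CPM in MUC1-C OE, was not called. The imprinted gene PEG3 was switched off (209, 144 and 144 counts in LNCaP, 1, 0 and 1 in MUC1-C OE). By library size alone, IGFBP5 (log2 fold change 0.14) was not called. IGFBP5 was no longer called without LNCaP replicate 2 or without LNCaP replicate 3, each left out in turn, with log2 fold changes of 0.24 to 0.29 and adjusted p of 0.0626 to 0.0747.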
